A study of Mus musculus with 9 samples.

Results

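Among the transcripts of RAW264.7 macrophages, 671 loci had been assembled from the reads without a gene identifier of the reference annotation. They are the loci whose identifier starts with MSTRG, the prefix StringTie gives to a locus of its own, after rows whose protein match speaks of intracisternal particles, viruses or retroviruses were left out. They hold 774 transcripts and are 671 of the 54725 gene identifiers in the matrix, beside 53700 annotated genes and 362 assembled loci with rows left out by those words (8 loci have rows of both kinds). The measure is FPKM, fragments per kilobase of transcript relative to the size of the library, summed over the transcripts of a locus. RAW264.7 is a murine macrophage-like line that responds to lipopolysaccharide (LPS), the outer membrane component of Gram-negative bacteria.

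The 9 samples fall by title into CON, LPS and ProNa, with 3 in each, and all are of the 1 cell line RAW264.7. One treatment text is attached to every sample. It gives ProNa at 1 mM for 24 h, or none, and then LPS at 100 ng/mL for 12 h, so what CON received is read from its title only, and ProNa is not spelled out. The ProNa group is read as ProNa followed by LPS. The RNA extraction text names colonic segments, whereas all 10 macrophage markers examined had at least 1 FPKM in each group and 0 of 5 epithelial, 0 of 5 lymphocyte and 0 of 5 fibroblast markers did. For the assembled loci only the authors' mean FPKM per group could be used, so no SD, standard error or p-value accompanies any locus, a difference cannot be set against the spread between samples, and the reads behind each value are unknown.

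Reference-guided assembly adds a locus wherever aligned reads form a transcript that no annotated gene explains. Such loci are commonly unannotated noncoding RNAs, pieces of transposable elements, fragments of introns or transcript ends that run past a gene, and copies of genes that the annotation lacks. LPS acts through Toll-like receptor 4 and switches on inflammatory and interferon-stimulated genes in macrophages, and many long noncoding RNAs are known to be induced with them.

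The assembled loci were short and mostly made of 1 transcript. Their longest transcript had a median of 503 bases, from 201 to 12547, against 1248 for annotated genes. A single transcript was assembled at 611 loci, and the most at 1 locus was 8. For 259 loci (38.6%) no protein match is given, 412 have a match in the nr protein collection, 120 in Swiss-Prot and 72 a Pfam domain. Levels were low for most: 577 loci reached 1 FPKM in at least 1 group, 186 reached 10 and 26 reached 100, and 19 are listed at 0 in all groups. The median locus had 1.61 FPKM in CON, 1.96 in LPS and 1.75 with ProNa. In sum the loci held 8383 FPKM in CON (1.06% of the summed FPKM of the matrix), 13565 in LPS (1.73%) and 15140 with ProNa (1.91%), and the 10 highest loci accounted for 50.8%, 58.8% and 59.1% of these sums.

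The highest locus was MSTRG.11927, a transcript of 489 bases with 854 FPKM in CON, 1844 in LPS and 2495 with ProNa. CON was the lowest group and ProNa the highest, 2.16-fold above CON in LPS and 2.92-fold in ProNa. By the order of assembly numbers it lies between Zfhx4 and Pex2 on chromosome 3, and its best protein match is a hypothetical protein of the roundworm Trichinella pseudospiralis. Assembly numbers run along the genome: of neighbouring pairs of numbers that also occur in annotated genes, 99.5% lay on 1 chromosome. Of consecutive numbers on 1 chromosome, 85.7% had a rising start position. The annotated genes next in number are given here as neighbours. Only 5847 of the 53700 annotated genes have such a number, so other genes may lie between a locus and the neighbour named. No distance is implied, since chromosomes come from an annotation of an older build.

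Of the other loci at the top, MSTRG.3809 (473 bases, between Apoh and Gna13 on chromosome 11) had 554, 1047 and 1396 FPKM in CON, LPS and ProNa. MSTRG.20903 (1175 bases) had 297, 1064 and 1135 FPKM, MSTRG.18593 (352 bases) 259, 646 and 758, and MSTRG.7144 (554 bases) 241, 558 and 615. In each of these 4, CON was the lowest group and ProNa the highest. The 14 loci whose match comes from Trichinella or the tapeworm Echinococcus, MSTRG.11927, MSTRG.20903, MSTRG.18593 and MSTRG.7144 among them, summed to 1841, 4440 and 5397 FPKM. In LPS 12 of the 14 were above CON and 6 of the 12 with at least 1 FPKM were 2-fold above it, against 15.1% of all genes, while MSTRG.16684, between Gm16556 and Apobec1, had 6.21, 0.720 and 0.347 FPKM. A match of this kind names the closest database entry and does not place the RNA in that organism.

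MSTRG.20895 was the exception among the 10 highest. It had 1229 FPKM in CON, 822 in LPS and 679 with ProNa, 1.5-fold and 1.81-fold lower than CON. Its match is the ubiquitin and ribosomal protein S27a fusion, a precursor of free ubiquitin and of a small-subunit ribosomal protein. The annotated gene Rps27a had 995, 677 and 658 FPKM, the same order of groups, and with a match of this kind reads may have been split between the locus and the gene. In the authors' deposited table Rps27a has log2 fold changes of -0.27 for LPS against CON (adjusted p-value 0.0133) and 0.10 for ProNa against LPS (adjusted p-value 0.416), so there the mean of ProNa is not below that of LPS. Across the 10 loci with a ribosomal or translation match the sums were 1313, 882 and 745 FPKM.

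**Figure D1:**
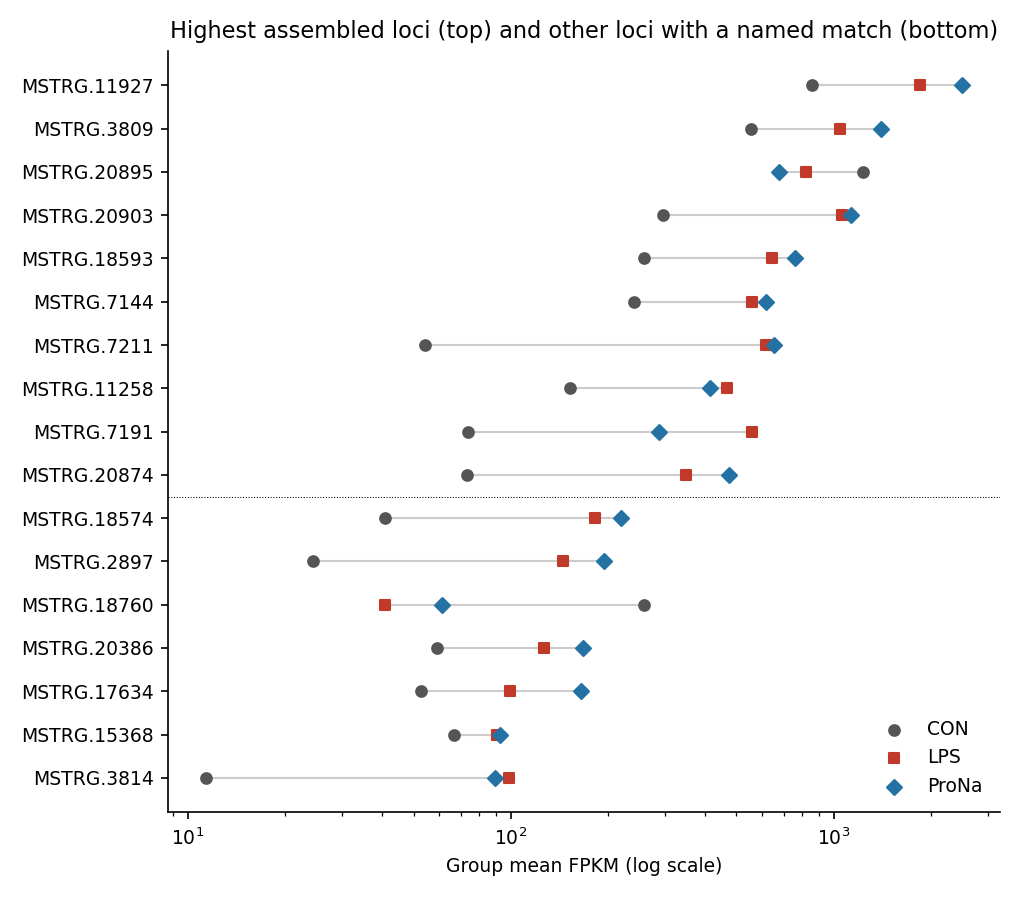
Group mean FPKM (x axis, log scale) of the 10 highest assembled loci, above the dotted line, and of 7 others among the 12 highest with a named protein match, below it. Circles are CON, squares LPS and diamonds ProNa, without error bars because only group means were used; CON is the lowest group at all but MSTRG.20895 and MSTRG.18760.

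The first comparison asks how LPS changed the RNA of the loci. A locus was counted as higher or lower where FPKM plus 0.5 differed at least 2-fold between group means, and only loci with at least 1 FPKM in 1 of the groups compared entered. Of 552 such loci, 215 (38.9%) were higher in LPS than in CON, against 15.1% of all genes, and 147 (26.6%) were lower, against 20.1% of all genes. Both shares were above those of all genes, and the higher one more so. The median log2 difference was 0.27 over these loci and -0.18 over all genes. Annotated long noncoding genes lay between, with 21.5% higher and 22.3% lower. The loci left out for their viral or particle match had 24.0% higher and 30.8% lower. No test was made of any of these differences in share.

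**Figure D2:**
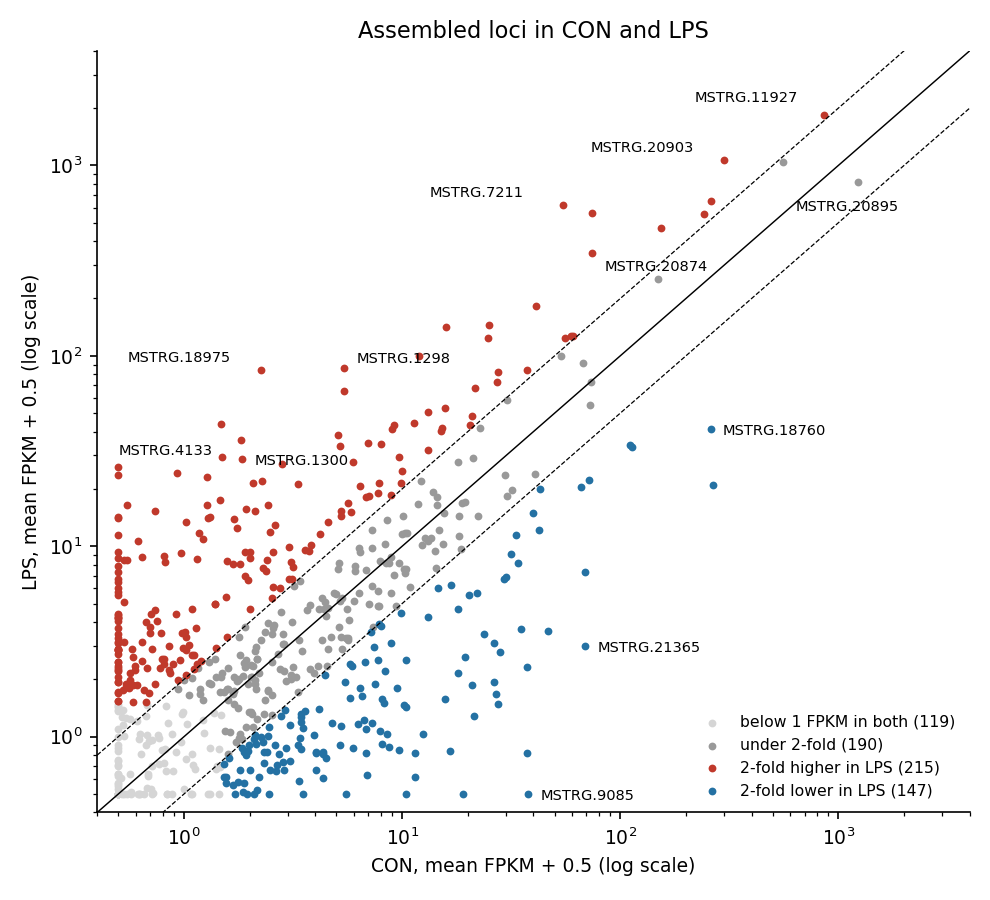
Mean FPKM plus 0.5 of each of the 671 loci in CON (x axis) and LPS (y axis), both on log scales. The solid line marks equal values and the dashed lines 2-fold; 215 loci are 2-fold higher in LPS, 147 lower, 190 within 2-fold and 119 below 1 FPKM in both groups, and the column of points at the left edge is of loci listed at 0 in CON.

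Among the 552 loci, the 8 largest rises in group mean belonged to loci with at most 1.76 FPKM in CON. MSTRG.18975, a transcript of 206 bases between Zfp617 and Eps15l1 on chromosome 8, had 1.76 FPKM in CON, 83.3 in LPS and 42.9 with ProNa. MSTRG.13099, of 711 bases near Sdcbp on chromosome 4, had 0.970, 43.5 and 33.7 FPKM, a 44.9-fold higher mean in LPS. MSTRG.3148, of 4168 bases, had 0.433, 23.8 and 24.3 FPKM, 54.8-fold higher in LPS. MSTRG.5462, of 431 bases and without a protein match, had 0.05, 15.9 and 7.28 FPKM. At 4 more loci CON is listed at 0, so no fold is given: MSTRG.4133 had 25.5 FPKM in LPS and 18.6 in ProNa, MSTRG.582 23.3 and 1.04, MSTRG.19111 13.7 and 24.4, and MSTRG.12445, which matches the LINE-1 protein ORF1, 13.5 and 5.17. In all, 44 loci are listed at 0 in CON with at least 1 FPKM in LPS, and 9 the other way round. The same count was not taken over all genes, so whether this split is particular to the loci is unknown.

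The largest falls in group mean reached a log2 difference of -6.24, against 5.70 for the largest rise. MSTRG.9085 (209 bases) had 37.4 FPKM in CON, is listed at 0 in LPS and had 1.26 in ProNa. MSTRG.4162 (262 bases, chromosome 12) had 36.7, 0.320 and 1.32 FPKM, and MSTRG.4159, of the same length, had equal FPKM in 2 of the 3 groups, so those 2 loci may be copies that share reads. MSTRG.21365, between Cysltr1 and Diaph2 on chromosome X, had 68.2, 2.51 and 5.45 FPKM, 27.2-fold lower in LPS. MSTRG.11929 (27.0, 0.980 and 1.53 FPKM) lies next to Pex2 on chromosome 3, and MSTRG.11690 (10.9, 0.117 and 0.300 FPKM) next to Fitm2 and Ttpal on chromosome 2. In MSTRG.11690 a transcript with 1.45 FPKM in CON has a match to a putative RNA methylase. The other transcript of that locus, with 9.46 FPKM in CON, has no match. MSTRG.12462 (18.6 FPKM in CON), MSTRG.17915 (9.87) and MSTRG.17049 (16.1) were at or under 0.337 FPKM in LPS. In ProNa 7 of these 8 loci stayed under 2 FPKM.

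**Figure D3:**
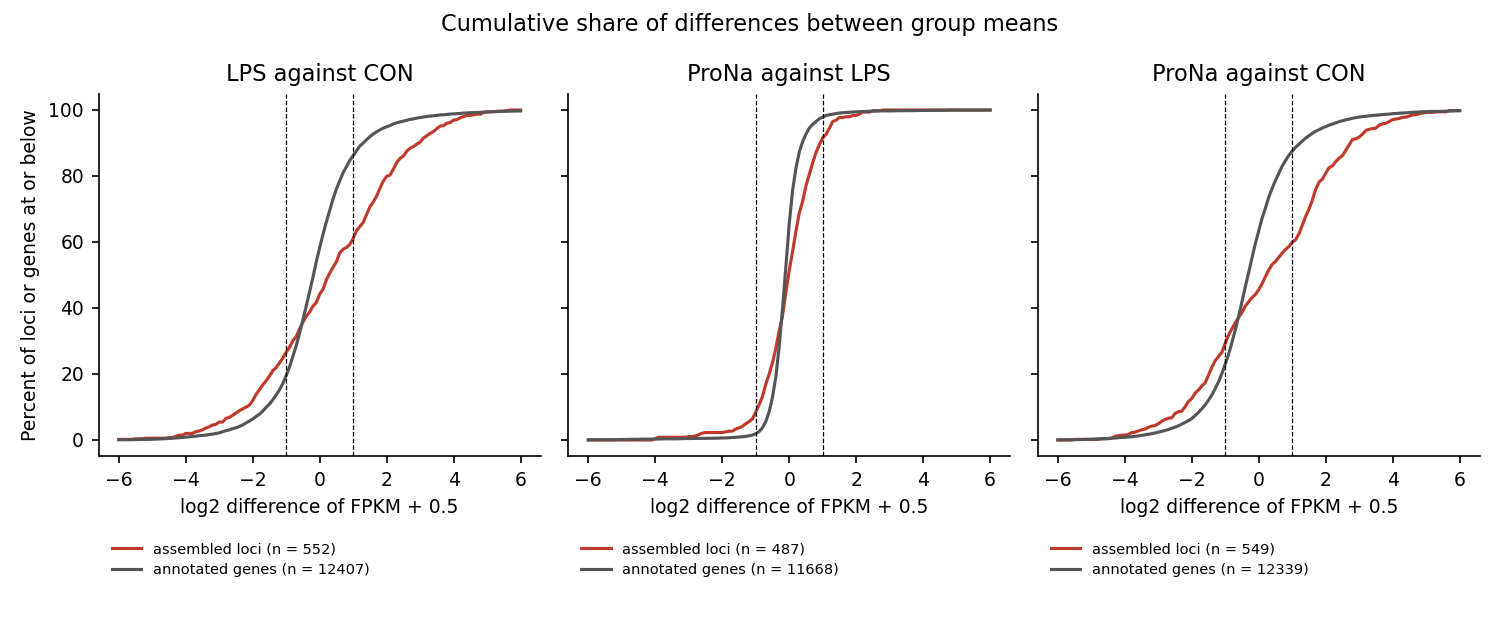
Percent of assembled loci (red) and annotated genes (grey) whose log2 difference of group mean FPKM plus 0.5 is at or below the value on the x axis, in the 3 comparisons, with dashed lines at 2-fold. The curve of the loci is flatter than that of the genes in all 3 comparisons. Past the right-hand line are 38.9% of loci for LPS against CON, 40.1% for ProNa against CON and 8.42% for ProNa against LPS.

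Many loci shared a protein match. The 412 nr matches name 226 entries, and 65 entries recur, over 262 loci. Loci with 1 match may share sequence, so they are not counted as independent of each other, and reads may be split among them. The most frequent was Chpt1 protein, with 24 loci on 13 chromosomes and a median longest transcript of 304 bases. Chpt1 encodes cholinephosphotransferase, the last enzyme of one route of phosphatidylcholine synthesis, but the annotated gene Chpt1 itself had 2.37, 1.74 and 1.79 FPKM, and its log2 fold change in the authors' deposited table is -1.30 for LPS against CON (adjusted p-value 4.2e-06). The 24 loci summed to 395 FPKM in CON, 1557 in LPS and 1785 with ProNa. In LPS 22 of 24 were above CON, 15 of them 2-fold, and MSTRG.2272 was 2-fold lower (4.27, 0.683 and 1.06 FPKM). Of all genes 15.1% were 2-fold higher and 20.1% 2-fold lower in LPS.

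The locus that led the Chpt1 group was MSTRG.7211, of 228 bases, between Slc38a1 and Slc38a2 on chromosome 15. It had 54.3 FPKM in CON, 616 in LPS and 655 with ProNa, 11.4-fold higher in LPS than in CON, and held 39.6% of the group's LPS sum. Slc38a1 and Slc38a2 encode sodium-coupled neutral amino acid transporters. They had 31.0, 110 and 90.8 FPKM and 141, 178 and 154 FPKM in CON, LPS and ProNa, so Slc38a1, like the locus, was over 2-fold higher in LPS and Slc38a2 was within 2-fold. Further loci of the group were MSTRG.18574 (40.7, 182 and 220 FPKM), MSTRG.3814 (11.4, 98.8 and 89.5) and MSTRG.17634 (52.8, 99.2 and 165), whereas MSTRG.15368 had 66.7, 91.0 and 92.4 FPKM, within 2-fold.

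Loci that match the rat protein rCG56442, 15 on 10 chromosomes, had a like course, from 109 FPKM in CON to 412 in LPS and 515 in ProNa. Of the 14 loci past 1 FPKM, 10 were higher in LPS and 0 lower, against 15.1% and 20.1% of all genes. MSTRG.2897, between Tnip1 and Atox1 on chromosome 11, was their highest, at 24.5, 145 and 195 FPKM. Another pair of short loci matches nuclear prelamin A recognition factor of a bat. Of that pair MSTRG.20386 had 59.1, 127 and 168 FPKM, and MSTRG.7191, between Gxylt1 and Zcrb1 on chromosome 15, had 73.6, 560 and 288 FPKM, 7.6-fold higher in LPS than in CON and 1.94-fold lower in ProNa than in LPS. Among the 98 loci with a named match outside the other classes, 47 (48.0%) were higher and 11 (11.2%) lower in LPS, against 15.1% and 20.1% of all genes. Their median log2 difference was 0.93. The Chpt1 and rCG56442 loci belong to this class, with 15 and 10 of the higher ones, so its count is not independent of theirs. The words that set the classes put mouse gene models (mCG) with the uncharacterized matches but not rat entries (rCG). The name rCG56442 thus counts as a named match only by the choice of words.

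A set of 10 loci that match the mouse gene model mCG1044012 had at most 4.05 FPKM each in CON. They summed to 10.9 FPKM in CON, 138 in LPS and 108 with ProNa, and 9 of 10 were higher in LPS, against 15.1% of all genes. MSTRG.15217 was the exception, with 1.47, 1.39 and 1.89 FPKM. A further 11 loci on 9 chromosomes (1 of them unplaced), which match 1 unnamed protein product, summed to 3.36, 130 and 66.1 FPKM. All 6 of them with at least 1 FPKM in CON or LPS were higher in LPS, and 9 of the 11 had a lower mean in ProNa than in LPS with 0 above it. Their highest members were MSTRG.18975, described above, and MSTRG.16054, between Clec5a and Zyx on chromosome 6, with 0.993, 28.9 and 16.6 FPKM.

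Other sets were lower in LPS. The 4 loci that match mCG1037441 summed to 380 FPKM in CON, 24.1 in LPS and 38.1 with ProNa. All 4 were lower in LPS, against 20.1% of all genes, with a median log2 difference of -4.26. MSTRG.11921 held 70.2% of the CON sum, with 267, 20.5 and 29.8 FPKM, and MSTRG.21365, MSTRG.12462 and MSTRG.4156 made up the rest. The 4 loci of a second unnamed product, among them MSTRG.11985 next to Tbl1xr1 (37.0, 1.82 and 4.13 FPKM), summed to 67.3, 4.43 and 6.50 FPKM. The 4 with a match to the filarial worm Wuchereria bancrofti summed to 44.0, 4.86 and 5.15 FPKM, and of these MSTRG.2619 next to Ikzf1 had 20.8, 0.787 and 0.280. The 5 loci of mCG148163 summed to 148, 39.9 and 45.9 FPKM, and MSTRG.1712 held 76.0% of their CON sum.

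Matches to parts of transposable elements and proviruses were present although the words used to leave rows out had removed rows at 362 loci. The 68 loci of the transposon class summed to 697 FPKM in CON, 383 in LPS and 377 with ProNa, and 13 of 59 (22.0%) were higher and 20 (33.9%) lower in LPS, against 15.1% and 20.1% of all genes. Among them, 7 loci match the envelope protein of proviruses related to murine leukaemia virus. They summed to 297, 49.9 and 71.2 FPKM, and MSTRG.18760, a transcript of 601 bases between Frg1 and Fat1 on chromosome 8, alone had 259, 40.9 and 61.1 FPKM, 6.32-fold lower in LPS. The IgE-binding protein entry, which is derived from an intracisternal A particle, was matched by 15 loci with 258, 149 and 107 FPKM in sum. Of these, 4 were lower in LPS, all with a gag match, a share near the 20.1% of all genes. In ProNa 8 were lower than in CON, where 23.7% of all genes were lower. The name of this entry is not among the words of the transposon class. Its loci are in the class only where another word, such as gag, put them there. LINE-1 elements, the autonomous retrotransposons of the mouse genome, showed no common direction: of the loci that match LINE-1 ORF2, 9 of 36 were higher and 9 lower in LPS, and of those that match ORF1, 4 of 14 were higher and 4 lower.

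**Figure D4:**
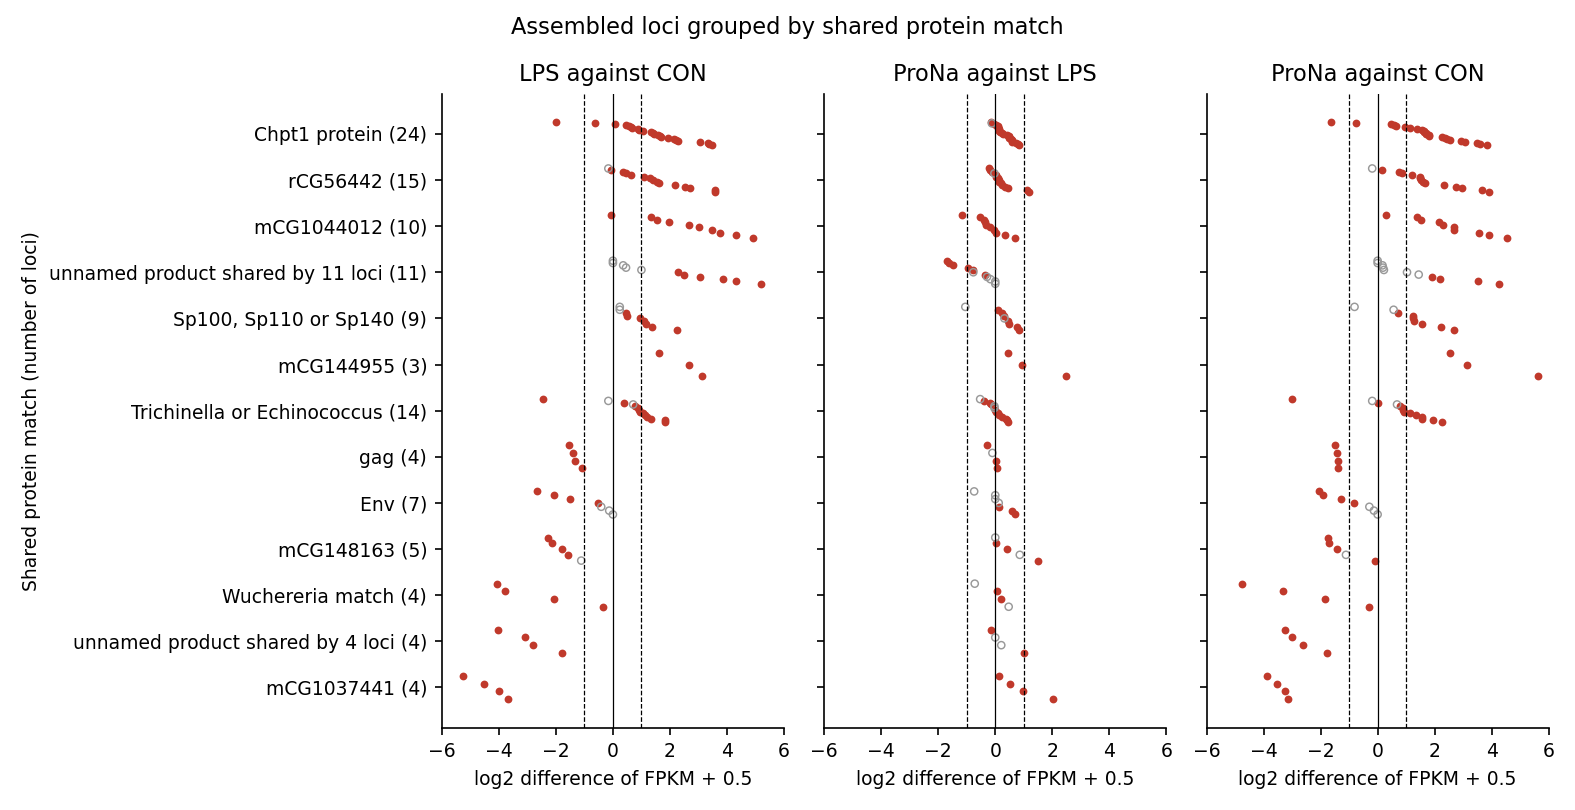
Log2 difference of group mean FPKM plus 0.5 (x axis) of each locus in 13 sets that share a protein match or a matched group of proteins (rows, number of loci in brackets), in the 3 comparisons. Filled red points have at least 1 FPKM in 1 of the groups compared, open grey points less; dashed lines mark 2-fold. The 24 Chpt1 loci lie mostly right of 0 and the 4 mCG1037441 loci all left of -3 in LPS against CON.

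Loci that match interferon-inducible proteins had larger sums in LPS and in ProNa than in CON. Sp100, Sp110 and Sp140 are nuclear body proteins induced by interferon and take part in the control of intracellular pathogens. Their matches, with that of the related Csprs, cover 9 loci that summed to 88.0 FPKM in CON, 383 in LPS and 527 with ProNa. All 9 had a higher mean in LPS than in CON. Of the 7 past 1 FPKM, 4 were 2-fold higher in LPS, against 15.1% of all genes. In ProNa 8 of 9 had a higher mean than in LPS, all 7 past 1 FPKM by less than 2-fold. MSTRG.20874, which matches Sp110, led them with 73.4, 348 and 475 FPKM, 4.75-fold and 6.47-fold higher than CON. It consists of 3 transcripts, and each had its lowest mean in CON and its highest in ProNa: 37.6, 189 and 263 FPKM for the first, 18.2, 91.7 and 117 for the second and 17.7, 67.4 and 95.0 for the third.

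The annotated counterparts had the same order of groups. Sp110 had 43.2, 81.8 and 142 FPKM, Sp100 55.1, 71.6 and 128, Sp140 19.4, 79.7 and 113, and Csprs 11.3, 35.3 and 45.7. In the authors' deposited table their log2 fold changes for ProNa against LPS are 0.92, 0.99, 0.63 and 0.42, with adjusted p-values of 8.2e-38, 1.0e-47, 2.6e-15 and 1.3e-08. Reads may be shared between these genes and the loci that match them, and their part in the values of the loci was not tested.

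A second group of this kind lies in the interferon-inducible Ifi200 cluster on chromosome 1, which encodes sensors of DNA and regulators of the interferon response. MSTRG.1300, of 1233 bases, matches interferon-activable protein 203 and has the assembly number of Ifi203, Ifi204, Ifi207 and Mndal. It had 1.35 FPKM in CON, 28.2 in LPS and 121 with ProNa, 20.9-fold higher in LPS than in CON and a further 4.3-fold higher in ProNa than in LPS. Ifi204 had 9.15, 53.0 and 146 FPKM, Mndal 121, 186 and 273, Ifi203 66.6, 163 and 230, and Ifi207 92.7, 102 and 126, so all 4 had the group order of the locus and Ifi204 had the largest relative difference of the 4. MSTRG.1298, a transcript of 276 bases with no protein match, lies next to Ifi205 and had 4.91, 86.3 and 171 FPKM, 17.6-fold and 34.9-fold above CON. The annotated Ifi205 had 0.313, 1.64 and 8.84 FPKM, and the authors' deposited table gives it a log2 fold change of 2.50 for ProNa against LPS (adjusted p-value 1.3e-29). Reads of similar genes, and reads of transcript ends past the annotated gene, may both be counted at such loci, and their part was not tested.

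In all, 23 loci had the assembly number of an annotated gene, a number that StringTie gives to a cluster of overlapping transcripts. Those beside genes of macrophage activation were chosen after their values were seen. MSTRG.3148, above, shares its number with Scimp, an adaptor of Toll-like receptor signalling, which had 1.22, 58.4 and 73.9 FPKM. MSTRG.6554 shares that of Acod1, which makes itaconate and is strongly induced by LPS. The locus had 0.237, 14.9 and 12.4 FPKM and Acod1 2.73, 954 and 1147. MSTRG.229 shares that of Il1rl1, the interleukin-33 receptor, with 2.57, 0.647 and 1.92 FPKM at the locus and 7.77, 2.11 and 6.79 at the gene. MSTRG.11891, the longest locus at 12547 bases, had 13.8, 7.19 and 3.26 FPKM beside B230312C02Rik at 50.1, 15.9 and 8.79. Not all such loci went with their gene. In the count that follows a locus enters once for each gene of its number, as MSTRG.1300 does, so the pairs are not independent. Over the 28 pairs of a locus and a gene of its number that could be placed (19 loci), LPS lay on the same side of CON at both in 22. Among the others, MSTRG.17231 had 0, 8.81 and 1.01 FPKM beside the zinc finger gene Zfp626 at 3.08, 2.69 and 1.93, and MSTRG.13771 had 1.09, 1.05 and 0.303 beside Gm12905 at 2.37, 9.21 and 5.47.

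Locus and neighbour were compared over all loci. In LPS against CON 335 loci past 2-fold had a measured gene of the same or next lower number, and 186 had its sign. Of the 341 such loci with a gene of the next higher number, 163 had its sign. Genes with the number of the locus itself, described above, count on the lower side only, so the sides are unlike measures. Pearson's r across loci was 0.17 on the lower and 0.05 on the higher side. Where the number differed by 0 or 1, r was 0.32 over 124 loci on the lower side and 0.08 over 172 on the higher side. These values are descriptions across loci that share libraries.

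A set of 24 loci has numbers between the last that belongs to chromosome 9 (20855) and the first that belongs to chromosome X (20937), with 0 placed annotated genes among them, so no chromosome is given for them. It holds most of the Sp110-like loci, MSTRG.20895 and MSTRG.20903, and loci with other named matches, among them Vamp7, a SNARE of late endosomes (MSTRG.20892, with 9.48, 11.1 and 10.4 FPKM), Tmlhe, the first enzyme of carnitine synthesis (MSTRG.20893, 9.97, 11.3 and 10.8), and Hjurp, the chaperone that loads the centromeric histone (MSTRG.20902, 9.81, 6.72 and 4.66). Of its 21 loci past 1 FPKM, 7 were higher and 0 lower in LPS than in CON, and 12 were higher and 0 lower in ProNa than in CON. Over all genes 15.1% were higher and 20.1% lower in LPS than in CON, and 13.8% and 23.7% in ProNa than in CON. MSTRG.20877, of 904 bases and without a protein match, had 24.3, 123 and 144 FPKM. These loci, apart from MSTRG.20874, MSTRG.20895 and MSTRG.20903, were chosen after their values were seen.

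The second comparison asks what ProNa changed in cells that received LPS. Of 487 loci past 1 FPKM, 41 (8.42%) were 2-fold higher in ProNa than in LPS, against 2.43% of all genes, and 41 (8.42%) were lower, against 2.26% of all genes. The median log2 difference of the loci was -0.02 and that of all genes -0.12. When differences were taken relative to the median of all genes, the split became 51 higher and 31 lower, so the balance of directions depends on this centring. Among loci at the top, none of the 10 highest passed 2-fold. Of the 174 loci with no match, 22 were higher and 19 lower, and of the 159 with an uncharacterized match, 8 were higher and 12 lower.

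The largest rises from LPS to ProNa, apart from MSTRG.1300, were of loci of at most 382 bases with at most 3.85 FPKM in LPS. MSTRG.17030, of 212 bases on chromosome 7, is listed at 0 in CON and had 3.85 FPKM in LPS and 24.0 in ProNa, 6.22-fold higher. It matches mCG144955, and the other 2 loci with that match also had their highest mean in ProNa: MSTRG.20684 next to Shisa5 on chromosome 9 with 2.82, 20.8 and 28.4 FPKM, and MSTRG.21034 on chromosome X with 0.110, 1.37 and 3.04. MSTRG.1713 had 1.44 FPKM in LPS and 10.4 in ProNa, 7.25-fold higher, with CON listed at 0. MSTRG.18815, of 382 bases, had 0.167, 0.403 and 3.56 FPKM. MSTRG.15630, MSTRG.11845 and MSTRG.15063 are listed at 0 in LPS and had between 1.75 and 2.87 FPKM in ProNa, and MSTRG.12462 is listed at 0 in LPS with 1.52 in ProNa.

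All of the 8 largest falls from LPS to ProNa were of transcripts under 300 bases, and 7 of the 8 are listed at 0 in ProNa. MSTRG.582, of 208 bases between Pde6d and Eif4e2 on chromosome 1, had 23.3 FPKM in LPS and 1.04 in ProNa, 22.4-fold lower, with CON at 0. MSTRG.752, which matches an ASL1 fusion protein, had 0.650 in CON and 8.06 in LPS, MSTRG.3574 8.22 and 7.70, MSTRG.4885, a LINE-1 ORF2 match, 4.59 and 7.11, and MSTRG.21008, next to Mir221 on chromosome X, 23.3 and 2.96. MSTRG.11010, MSTRG.1796 and MSTRG.5809 had between 2.78 and 3.77 FPKM in LPS. The number of fragments behind each of these values is unknown.

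Over both steps, 462 loci passed 1 FPKM in each of the comparisons. The comparisons share the LPS group, so a chance high or low LPS mean alone gives opposite directions. Of these loci 26 were higher in LPS than in CON and lower in ProNa than in LPS, 15 were lower and then higher, 8 were higher in both steps and 3 lower in both, which is 5.63%, 3.25%, 1.73% and 0.649%. Of the 12260 genes of the whole matrix past 1 FPKM in both comparisons, the same patterns held 1.35%, 0.693%, 0.530% and 0.155%. In the first order MSTRG.582, MSTRG.11010, MSTRG.752, MSTRG.5809 and MSTRG.6579 had the largest changes. MSTRG.6579, a LINE-1 ORF2 match near Mir17hg on chromosome 14, had 1.25, 11.9 and 1.47 FPKM. In the second order they were MSTRG.12462, MSTRG.9085, MSTRG.9419, MSTRG.8691 and MSTRG.2478. MSTRG.9419, with a match to mCG148163, had 3.66, 0.893 and 3.41 FPKM, MSTRG.2478, next to Rnf41, 6.07, 1.14 and 3.44, and MSTRG.8691, next to Cd2ap, 5.48, 0.367 and 1.87. MSTRG.1300 and MSTRG.17030 were among the 8 that were higher in both steps.

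The third comparison sets ProNa against CON and shares a group with each of the others. Of 549 loci past 1 FPKM, 220 (40.1%) were higher in ProNa than in CON, against 13.8% of all genes, and 161 (29.3%) were lower, against 23.7% of all genes. The median log2 difference was 0.22 over the loci and -0.31 over all genes. MSTRG.1300 was highest in log2 difference (6.04), followed by MSTRG.19111 (5.64), MSTRG.17030 (5.61), MSTRG.4133 (5.26) and MSTRG.1298 (4.99). MSTRG.19842, with 4 transcripts next to Bbs9 on chromosome 9, is listed at 0 in CON and had 8.15 FPKM in LPS and 14.3 in ProNa, and MSTRG.21040 on chromosome X, also listed at 0 in CON, had 5.54 and 12.6. At the other end MSTRG.21008 had a log2 difference of -5.57, MSTRG.2619 of -4.77 and MSTRG.9085 of -4.42, and MSTRG.12458, next to Gm9774 on chromosome 3, had 9.17 FPKM in CON, 0.347 in LPS and is listed at 0 in ProNa.

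Length moved with the share of loci past 2-fold. Of 136 loci under 300 bases, 45.6% were higher and 24.3% lower in LPS than in CON, of 257 from 300 to under 1000 bases 40.9% and 26.8%, and of 159 of 1000 bases or more 30.2% and 28.3%. Annotated genes of the same lengths had 37.1% and 33.0%, 17.4% and 18.8%, and 13.0% and 19.3%. In ProNa against LPS, 18.7% of the loci under 300 bases were higher and 12.7% lower, and the annotated genes under 300 bases had 31.1% and 36.1%. For loci of 300 to under 1000 bases the shares were 4.80% and 7.42%, against 3.48% and 4.83% of annotated genes of that length, and for the longest 4.03% and 5.65%, against 1.47% and 0.966% of annotated genes of 1000 bases or more. Of the 57 loci picked out by size of level or change, 35 were under 300 bases, and so were 14 of the 16 with the largest changes between LPS and ProNa. The part that length has in the shares of the loci was not tested.

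**Figure D5:**
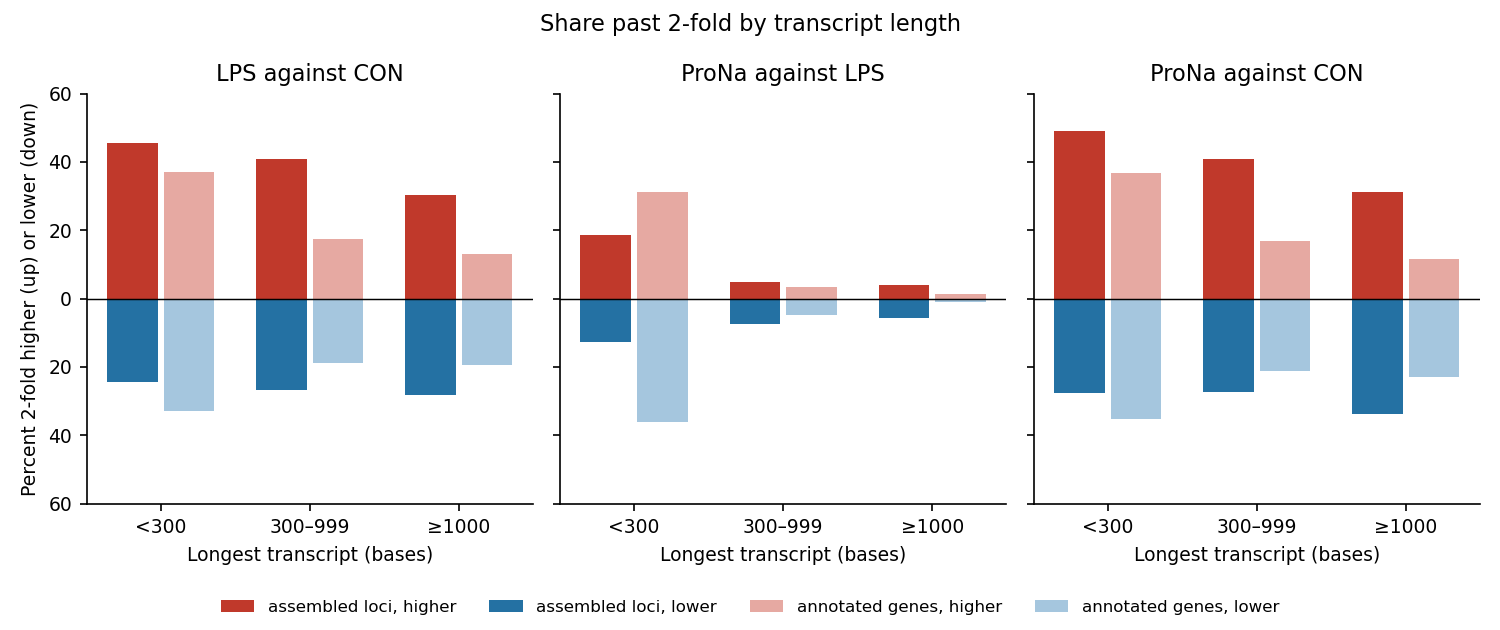
Percent of assembled loci (dark bars) and annotated genes (pale bars) 2-fold higher (up) or 2-fold lower (down) in each comparison, by the length of the longest transcript in bases. Bars have no error bars because they are counts over group means; in ProNa against LPS, 31.1% of annotated genes under 300 bases are higher, above the 18.7% of assembled loci.

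Few loci allowed a comparison of transcripts. Of the 60 with more than 1 transcript, 32 had at least 1 FPKM in every group, and 17 of the 32 had the same highest transcript in CON, LPS and ProNa. Neighbouring numbers were both loci of this kind for 160 of the 671, so part of them may be pieces of 1 longer transcript.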

How the data were processed

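The tools HISAT2, StringTie and DESeq2 and the build GRCm39 are named per the submitters' processing notes; versions and strand handling are not given in the sources used here. The deposited transcript matrix holds FPKM, as stated per the file headers. Its columns named after the 3 groups were read as the authors' means per group, and 9 columns of single libraries, whose names match no label, were not used. The authors' deposited table gives log2 fold changes and adjusted p-values per gene, per the file headers. It lists 53700 genes and 0 of the assembled loci, so its values are given for annotated genes only. Of 3 files, 2 were used. Depth per sample is unknown.

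FPKM were summed by locus with Python 3.11.15 and pandas 2.3.3. Differences are log2 of group mean FPKM plus a pseudocount of 0.5. Loci with at least 1 FPKM in 1 of the groups compared and a 2-fold difference were counted, and the same share over all genes was taken for each comparison. A limma fit over samples had been planned and could not be run, since no column of a single library bears a sample's name. The counting step was run on simulated data with known folds and little noise. That run checks the code and does not give the rate of false calls among loci with low levels. Named loci are the 10 highest, the 8 largest rises and falls per comparison, the 5 largest of each opposite order and the 12 highest with a named match, of which 1 is not reported here. Others were chosen after their values were seen, namely members of sets that share a protein match and loci beside an annotated gene. The loci, lists and classes were chosen with earlier results of these data known. Neighbours and chromosomes come from GENCODE M21 by gene identifier, found for 6084 of 6123 pairs of an assembly number and a gene. That annotation is of an older build, so no coordinates are printed, and the sequences of the loci were not analysed here.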

Additional observations from a re-analysis of the deposited data

How the results depend on the processing

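The counts of higher and lower loci stayed within 1.5 times their reported values with a pseudocount of 0.1 or 1, without a level minimum, with the highest transcript in place of the sum and when recentred on the median of all genes. That median is -0.18 for LPS against CON, -0.12 for ProNa against LPS and -0.31 for ProNa against CON. With a level minimum of 5 FPKM, which leaves fewer loci, 123 were higher and 78 lower in LPS against CON, 15 and 17 in ProNa against LPS and 124 and 87 in ProNa against CON. A fold limit of 4 gave 111 and 66, 8 and 11, and 105 and 69. Without the loci that have a protein match, 73 and 65, 22 and 19, and 72 and 72 were left. With the rows of viral and particle matches kept, which adds loci by construction, 288 were higher and 241 lower in LPS against CON. The counts became 285 and 280 for ProNa against CON, and 48 and 57 for ProNa against LPS. Higher loci then made up 54.4% of those past 2-fold in LPS against CON, from 59.4% without these rows. For ProNa against CON their share was 50.4%, from 57.7%. In these 2 comparisons the excess of higher over lower loci thus depended in part on leaving the rows out. For single named loci, 30 differences fell below the level minimum of 5 FPKM and were not counted there. Of the other 924 recomputed differences, 886 kept their side of 2-fold, 31 no longer passed it (29 of them at the fold limit of 4), 7 newly passed it, and no difference past 2-fold changed sign in the settings run for single loci, which were both pseudocounts, the stricter level and fold limits, the recentring and the highest transcript. No paired analysis was possible because the columns used carry no replicate numbers and the counts come from no test. For the same reason no replicate could be left out. An alternative without single-exon loci and one by the authors' adjusted p-values were not run, since no file at hand gives exons and the authors' table does not list the loci. Depth is unknown, so how far it limits the short loci cannot be given.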
